A study of Homo sapiens with 6 samples.

Results

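The regions described here are H3K27ac peaks of M2 macrophages that lie far from every H3K27ac peak of THP-1 cells. A peak belonged to the set if it was in the M2 list, was under 3000 bp wide and was separated by at least 100000 bp from the nearest THP-1 peak on the same chromosome. The Y chromosome was left out. In all, 5181 of the 53952 M2 peaks under 3000 bp met these conditions, a share of 9.60% (exact 95% binomial interval 9.36 to 9.85). Without the width limit the share was 9.30%, and among M2 peaks of 3000 bp or more it was 2.59%. The lists hold 56420 M2 and 31444 THP-1 peaks of any width. Position and width chose the members, so neither is a result in itself, and the text below calls the members far M2 peaks.

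THP-1 is a human monocytic leukaemia line, labelled as monocytes and grown in RPMI medium with serum. The compared cells are labelled M2 macrophages, and the sources used here do not say how they were made or treated. For each of the 2 there was 1 H3K27ac library, and the YY1 and input libraries of the series were not analysed here. With 1 library per cell type there is no replicate check, no test between the cell types and no p-value, and intervals cover counting error only.

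H3K27ac is the acetylated form of a lysine in the tail of histone H3. It marks active promoters and active enhancers, the regulatory sequences that can act on a gene over long distances. Macrophages are phagocytes that can arise from monocytes. Their enhancers open in steps as lineage factors such as PU.1 and signal-dependent factors such as NF-kappaB bind DNA. A cluster of acetylated sites within a single gene neighbourhood is a usual feature of strongly regulated loci. In a bulk library a larger share of cells with the mark and more mark per cell cannot be told apart.

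Genes are named beside clusters from general knowledge of the hg19 gene map, as background and without gene coordinates. No overlap between a peak and a gene was computed, because no hg19 annotation was used here. All 60 gene symbols listed for 38 clusters were found on the chromosome of their cluster in a RefSeq gene table of GRCh38, as were all 13 named for 10 single peaks. That table was used for names only. For the same reason the marker genes of the labelled cell types were not checked against the peaks. Whether a far M2 peak acts on the gene named beside it was not tested.

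Shown next, as background, are sequences of a microRNA pair and of 5 myeloid genes named beside large clusters. One of the largest clusters lies on the X chromosome around the genes of miR-221 and miR-222. The mature microRNAs are shown 5′ to 3′ from RefSeq with the seed, bases 2 to 8, in capitals, because both 3p strands share it.
hsa-miR-221-3p: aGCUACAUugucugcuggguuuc
hsa-miR-222-3p: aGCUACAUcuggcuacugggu
hsa-miR-222-5p: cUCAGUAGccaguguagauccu
The seed GCUACAU is held by 2 of 2370 mature human microRNAs in that table, the pair itself. The 5p strand shown has another seed.

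Promoters are shown for CXCL2, CXCL3, CLEC4E, ACOD1 and CYBB, inflammatory and phagocyte genes at 4 of the 10 largest clusters. They were chosen by hand after the clusters were seen. The rest of the 10 lie at HMGA2, BHLHE41, miR-221 and miR-222, SVIL, SUPT3H and MAPK10. How often inflammatory or phagocyte genes lie beside M2 peaks in general was not counted, so the choice shows no theme of the set. Each is the 250 bases before the gene start, 5′ to 3′ on the gene's own strand, from RefSeq on GRCh38. Capitals mark matches to 3 short motifs searched on both strands: GGGAA, any 2 bases and TCC for NF-kappaB, TGANTCA for AP-1 and GAGGAA for PU.1.
CXCL2: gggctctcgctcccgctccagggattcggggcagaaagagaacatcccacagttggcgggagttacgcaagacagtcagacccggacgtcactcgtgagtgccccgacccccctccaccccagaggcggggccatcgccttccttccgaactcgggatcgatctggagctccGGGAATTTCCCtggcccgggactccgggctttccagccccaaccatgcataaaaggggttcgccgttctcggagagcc
CXCL3: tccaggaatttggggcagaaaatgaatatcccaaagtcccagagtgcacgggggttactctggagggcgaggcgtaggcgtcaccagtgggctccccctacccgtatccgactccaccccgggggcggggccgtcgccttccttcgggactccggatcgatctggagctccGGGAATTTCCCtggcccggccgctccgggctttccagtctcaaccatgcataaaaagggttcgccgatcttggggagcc
CLEC4E: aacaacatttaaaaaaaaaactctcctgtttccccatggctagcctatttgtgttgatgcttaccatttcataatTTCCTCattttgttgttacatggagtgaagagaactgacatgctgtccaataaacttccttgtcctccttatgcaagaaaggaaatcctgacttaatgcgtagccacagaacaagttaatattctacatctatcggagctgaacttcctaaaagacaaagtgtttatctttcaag
ACOD1: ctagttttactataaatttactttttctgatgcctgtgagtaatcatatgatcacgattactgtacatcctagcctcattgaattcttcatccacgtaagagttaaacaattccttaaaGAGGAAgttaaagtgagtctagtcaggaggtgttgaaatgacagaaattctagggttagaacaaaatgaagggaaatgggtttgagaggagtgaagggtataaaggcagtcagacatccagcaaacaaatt
CYBB: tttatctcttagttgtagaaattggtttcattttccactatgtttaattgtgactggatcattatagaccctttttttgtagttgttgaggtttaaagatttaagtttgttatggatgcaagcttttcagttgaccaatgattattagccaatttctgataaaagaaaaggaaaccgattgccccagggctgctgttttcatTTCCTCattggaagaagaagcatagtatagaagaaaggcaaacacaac
The chemokine genes CXCL2 and CXCL3 hold the same run of 11 letters, GGGAATTTCCC, in which the NF-kappaB motif matches on both strands with overlapping letters. That motif occurs in 1.30% of the 35116 promoters of this length in the table. The letters next to the run are also the same in CXCL2 and CXCL3, so their matches are not independent. The PU.1 core occurs once each in the CLEC4E, ACOD1 and CYBB promoters and in 23.6% of all promoters, so its presence is common. The AP-1 motif, found in 6.57% of all promoters, has no match in these windows. A match is a description of letters, and the peaks could not be placed on these sequences because their build differs.

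Far M2 peaks had a slightly higher median fold enrichment than other M2 peaks without a THP-1 counterpart, but held fewer fragments. Fold enrichment is the authors' value for each peak, the signal at the summit over the local background. Its median was 5.21 at far M2 peaks (interquartile range 4.24 to 6.93), 4.93 at the 29787 M2 peaks that had no overlap but lay closer than 100000 bp to a THP-1 peak (3.85 to 6.64), and 6.09 at the 18984 that overlapped a THP-1 peak (4.54 to 8.45). The interquartile ranges overlap widely. The binomial interval of the far median, 5.21 to 5.30, does not reach the median of the other M2-only peaks. That interval treats peaks as independent, although many lie close to each other and all come from the same library. It therefore cannot decide whether the sets differ. Fragments over the summit were recovered from the fold enrichment and p-value of each peak, as described under processing. Far M2 peaks held a median of 26 fragments, against 32 at the other M2-only peaks and 56 at overlapping ones. Fewer than 20 fragments lay over the summit of 1554 far M2 peaks, 30.4% of those with a recovered value, which marks the part of the set that rests on the least data. The corresponding shares were 22.6% and 9.66%.

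Recovered local background, relative to the lowest in the M2 list, differed in the same order. It was 1.55 at far M2 peaks (median), 2.06 at the other M2-only peaks and 3.10 at overlapping peaks. Because fold enrichment divides the signal by this background, the fold medians cannot be read apart from it. A -log10 q of at least 10 was reached by 47.2% of far M2 peaks (45.8 to 48.5), 50.3% of the other M2-only peaks and 74.8% of overlapping peaks. Far M2 peaks were also narrow, with a median width of 566 bp against 588 bp and 1088 bp in the other sets, all limited to under 3000 bp. At the strong end, 468 far M2 peaks were at least 10-fold enriched, 9.03% (8.27 to 9.85). The share was 7.74% (7.44 to 8.05) among the other M2-only peaks and 15.6% (15.1 to 16.2) among overlapping peaks. Of the 5396 M2 peaks under 3000 bp in the decile of highest -log10 q, 214 were far M2 peaks, 3.97% (3.46 to 4.52) against the 9.60% in all.

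The limit of 100000 bp did not coincide with a step in these values. Just inside it, at gaps of 100000 to 105000 bp, 272 peaks had a median fold enrichment of 5.15 and a median width of 556 bp. Just outside it, at 95000 to 100000 bp, 349 peaks had 5.19 and 596 bp. Across distance classes the median fold enrichment was 4.38 at gaps of 1 to 1000 bp, 5.21 from 50000 to below 100000 bp, and 5.28 from 200000 to below 500000 bp. Median fragments were 36, 29 and 25 in the same classes.

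**Figure D1:**
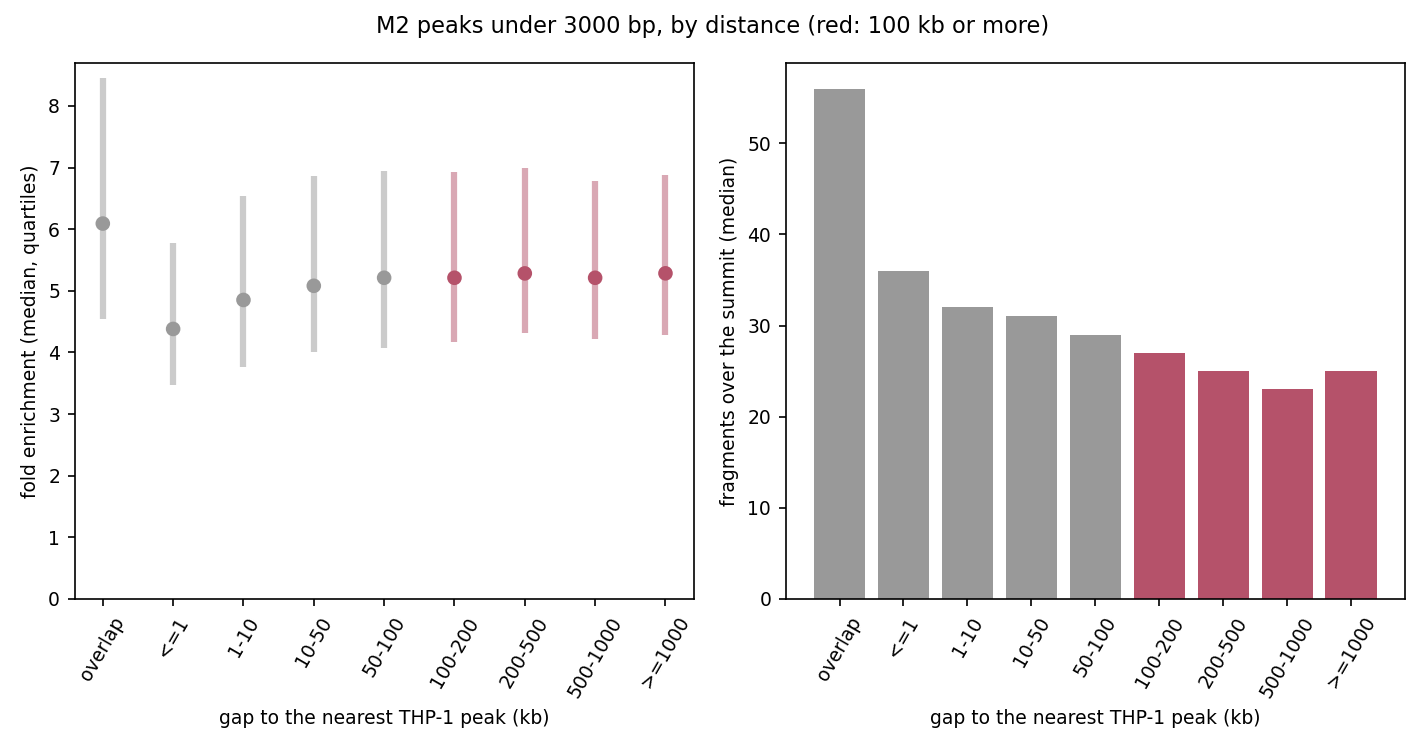
M2 peaks under 3000 bp grouped by the gap to the nearest THP-1 peak in kb. The left panel gives fold enrichment (median, with bars from the lower to the upper quartile) and the right panel the median number of recovered fragments over the summit. Red classes hold the far M2 peaks: their fold enrichment stays near 5.2 to 5.3 while fragments lie between 23 and 27.

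The gap itself had a median of 168706 bp and reached 2211874 bp. It was at least 200000 bp for 1978 far M2 peaks (38.2%), at least 500000 bp for 322 (6.22%) and at least 1000000 bp for 46. Far M2 peaks also stood farther from other peaks of their own list. The nearest M2 peak of any width was a median of 3904 bp away, compared with 888 bp for the other M2-only peaks and 2331 bp for overlapping ones. Such a neighbour lay within 5000 bp of 51.8% of far M2 peaks, fewer than the 67.9% of other M2-only and 60.4% of overlapping peaks. None lay within 50000 bp of 23.8% of far M2 peaks, against 3.75% and 6.79% in the other sets. The set thus held both close groups of peaks and many peaks on their own.

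Sequence at least 100000 bp from any THP-1 peak made up 1350 Mb, or 45.9% of the span between the outermost peaks of the 23 chromosomes, and held 3.84 far M2 peaks per Mb. The remaining sequence held 30.6 M2 peaks under 3000 bp per Mb. The far sequence includes centromeres and other gaps in which no peak can be called. Without gaps of more than 3 Mb between neighbouring peaks of either list, it came to 1190 Mb and 4.35 far M2 peaks per Mb. It fell into 3271 stretches, of which 1646 (50.3%) held at least 1 far M2 peak and 1625 held none. In 70 stretches there were 10 or more, together 899 far M2 peaks or 17.4% of the set. Stretches with 10 or more had a median length of 724 kb, counted between the THP-1 peaks on either side, those with 1 to 9 had 485 kb and those with none 295 kb.

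By chromosome the far share ranged from 3.90% on chromosome 17 (91 peaks, interval 3.15 to 4.76) to 18.2% on the X chromosome (269 peaks, 16.2 to 20.2). Chromosome 4 followed at 17.98%, with 438 far M2 peaks, the most of any chromosome, and an interval of 16.5 to 19.6 that overlaps that of the X chromosome. Chromosomes 13 and 12 came next, with 180 of 1286 peaks far and 357 of 2568 (13.9%). At the low end, chromosomes 19, 22, 16, 1 and 21 had 4.74%, 4.99%, 5.65%, 6.27% and 6.49%. Far sequence made up 62.8% of the X chromosome and 52.2% of chromosome 4 but 30.2% of chromosome 17, and the 3 chromosomes with the smallest share of far sequence, 17, 22 and 19, also had the 3 lowest far shares.

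Per Mb of far sequence the order was different. Chromosome 20 had 5.59 far M2 peaks per Mb, chromosome 12 had 5.47 and chromosome 19 had 5.43, while the X chromosome had 2.76 and chromosome 16 the lowest value, 2.32. Chromosome 12 stood high on both measures. Chromosome 16 has a large share of far sequence in 1 or more long gaps without any peak: with gaps over 3 Mb left out its value was 3.97. By the same count chromosome 19 came first at 6.62, chromosome 20 had 6.33, chromosome 12 had 6.18, and the X chromosome with 3.01 and chromosome 21 with 3.02 came last.

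**Figure D2:**
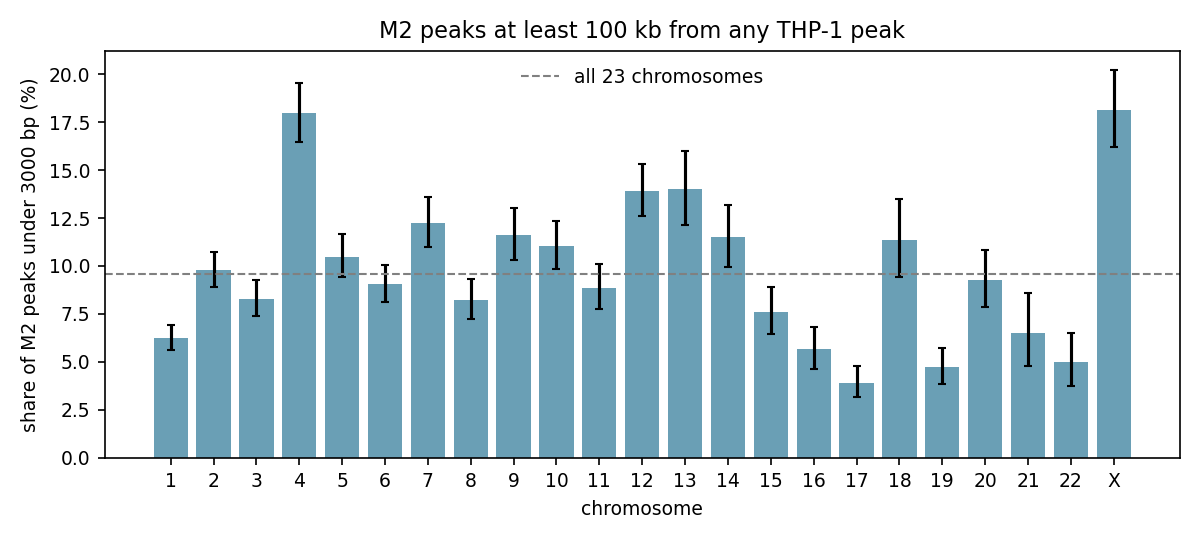
Share of M2 peaks under 3000 bp that lie at least 100 kb from any THP-1 peak, for each chromosome, in percent. Bars start at 0, error bars are exact 95% binomial intervals and the dashed line is the share over all 23 chromosomes, 9.60%. The X chromosome and chromosome 4 stand at 18.2% and 17.98% and chromosome 17 at 3.90%.

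**Figure D3:**
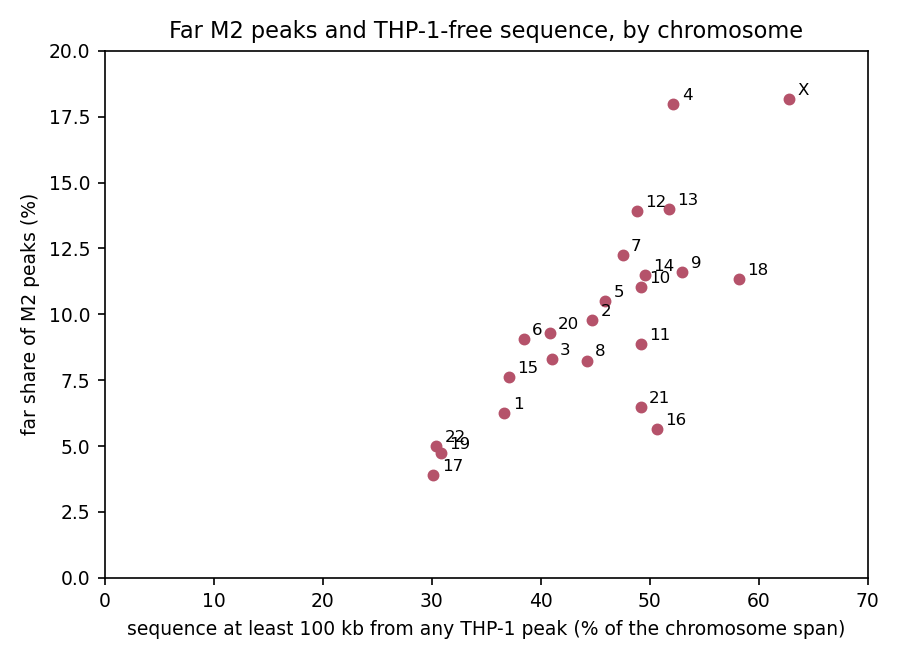
Far share of M2 peaks in percent against the percentage of each chromosome's span that lies at least 100 kb from any THP-1 peak, 1 point per chromosome. Chromosomes 17, 22 and 19 lie at the lower left with about 30% far sequence and the X chromosome at the upper right with 62.8%. Chromosome 16 has 50.6% far sequence, part of it in long gaps without peaks, and a far share of 5.65%.

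Joined where they lay up to 50000 bp apart, the far M2 peaks formed 2599 groups. Of these, 1375 were single peaks, 26.5% of the set, and 653 were pairs. Groups of at least 5 peaks, here called clusters, numbered 172 and held 1166 far M2 peaks, 22.5% (21.4 to 23.7), and 18 clusters had 10 or more. How often other M2 peaks form such groups was not counted, so clustering is not shown to be particular to the set. Far M2 peaks in clusters of 10 or more had a median of 28 fragments and a median fold enrichment of 5.45 (binomial interval of the median 5.09 to 6.07). Single peaks had 24 fragments and 5.21 (5.10 to 5.30), so the intervals overlap. Chromosomes 4 and 12 each had 18 clusters, the most, and chromosome 2 had 15. Clusters held 40.3% of the far M2 peaks on chromosome 12 and 35.0% on chromosome 13, but 6.06% on chromosome 19, which had 1 cluster.

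**Figure D4:**
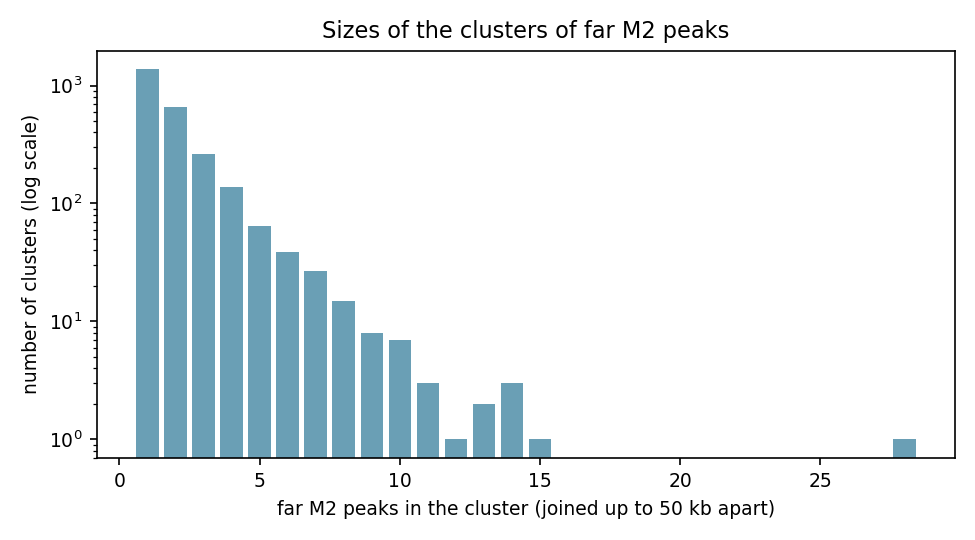
Number of clusters (log scale) against the number of far M2 peaks in each, with members joined up to 50 kb apart and groups of 1 to 4 peaks included. Single peaks number 1375, and the largest cluster, with 28 peaks, stands apart from the next, with 15.

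The largest cluster, on chromosome 12 at 65930056 to 66136299, held 28 far M2 peaks over 206 kb. It lies between MSRB3 and HMGA2, in the stretch before HMGA2, which encodes an architectural chromatin protein of embryonic and mesenchymal cells that is re-expressed in many tumours. Its peaks covered 26.8 kb, with fold enrichments from 1.90 to 22.4 (median 5.18) and 11 to 213 fragments over a summit. The strongest, at 66050940 to 66053517, was 22.4-fold enriched with 213 fragments. Of the 28, 12 had a -log10 q of at least 10. A further 3 M2 peaks of 3000 bp or more lay inside the same bounds, the widest 9500 bp. That widest peak ended at 66050733, just before the strongest far M2 peak began. Over all far M2 peaks the lower quartile of the distance to the nearest M2 peak was 302 bp. The number of peaks in a cluster is thus not a number of separate sites. The nearest THP-1 peaks were 272 kb to the left and 182 kb to the right. Which cluster is largest depends on the THP-1 list: when THP-1 peaks below a -log10 q of 10 were dropped, far M2 peaks numbered 14824, a cluster of 34 on chromosome 1 came first, and 2 of the 15 largest clusters described here were again among the 15 largest.

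On chromosome 4 at 74871132 to 74965504, 14 far M2 peaks stood among the CXC chemokine genes, over CXCL3 and CXCL2, whose products draw neutrophils. Their fold enrichments ran from 3.22 to 12.3 with a median of 4.21, and 2 wider M2 peaks lay among them. The 14 far M2 peaks had a median of 24.5 fragments over a summit, and 5 of them had a -log10 q of at least 10. THP-1 peaks were 264 kb away on one side and 106 kb on the other. On chromosome 12 at 8605141 to 8782912, 11 far M2 peaks spanned CLEC4D and CLEC4E, C-type lectin receptors for microbial glycolipids. The median fold enrichment was 7.79 there (3.41 to 10.4), and the nearest THP-1 peaks were 209.7 and 272 kb away.

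On chromosome 13 at 77452880 to 77623698, 14 far M2 peaks extended from KCTD12 over ACOD1 and beyond it. ACOD1 makes itaconate, a metabolite of activated macrophages. Fold enrichments ran from 2.08 to 16.7, and the strongest peak, at 77518022 to 77519522, held 57 fragments. With a median of 53 fragments over a summit this was the best covered of the 15 largest clusters. On the X chromosome at 37604820 to 37731317, 13 far M2 peaks lay around CYBB and DYNLT3. CYBB encodes the catalytic subunit of the phagocyte NADPH oxidase. The strongest, at 37660387 to 37661379, was 11.3-fold enriched with 45 fragments, and THP-1 peaks were 395 and 446 kb away. The cluster's median of 21 fragments over a summit was the lowest of the 15 largest clusters. Of its 13 far M2 peaks, 5 had a -log10 q of at least 10.

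The cluster at the genes of miR-221 and miR-222, on the X chromosome at 45569496 to 45662901, held 14 far M2 peaks over 93.4 kb. These microRNAs are known to repress the cell-cycle inhibitor CDKN1B and the receptor KIT through the shared seed shown above. Fold enrichments ran from 2.36 to 7.82 with a median of 5.21, and none reached 10. The nearest THP-1 peak on the left was 3986 kb away, and that on the right 376 kb. No cluster among the 15 largest was farther from a THP-1 peak on one side.

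On chromosome 10 at 29843608 to 30118020, 13 far M2 peaks covered the 5′ part of SVIL, a linker of actin and membrane, and the sequence before it, over the longest span of the 15, 274 kb. The strongest was 19.7-fold enriched with 116 fragments. On chromosome 6 at 44893433 to 45040387, 12 far M2 peaks lay inside SUPT3H, the neighbour of RUNX2, the main transcription factor of bone-forming cells. Their median fold enrichment, 7.93, was the highest of the 15 largest clusters, and 9 of the 12 had a -log10 q of at least 10. On chromosome 4 at 88727231 to 88818258, 11 far M2 peaks lay over IBSP and MEPE and before SPP1, neighbouring genes of secreted bone-matrix phosphoproteins, of which SPP1 (osteopontin) is also a macrophage product. The median there was 6.35 and THP-1 peaks were 126 and 116 kb away.

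On chromosome 12 at 26163448 to 26304173, 15 far M2 peaks ran from RASSF8 to BHLHE41, a repressor of the circadian clock that is also active in tissue macrophages. Their median fold enrichment was 4.24 and none reached 10. The peak with most fragments over a summit, 206, had the lowest fold enrichment of the cluster, 2.09. The highest fold enrichment, 6.93, came with 23 fragments. On chromosome 4 at 87250902 to 87364998, 11 far M2 peaks covered the 5′ part of MAPK10, a JNK kinase known mainly from neurons, with a median of 7.07 and 8 of 11 at a -log10 q of at least 10. On chromosome 5 at 141702716 to 141826859, 10 far M2 peaks began at the 5′ end of SPRY4, a feedback inhibitor of receptor tyrosine kinase signalling. The strongest of them, 14.6-fold enriched, held 165 fragments. On chromosome 2 at 224441238 to 224626269, 10 far M2 peaks lay from SCG2, a secretory granule protein, to AP1S3, a clathrin adaptor subunit, with a median of 7.50 and a highest value of 19.1.

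The cut at 15 falls among 7 clusters of 10 peaks each, which were ordered by the sequence they cover. On chromosome 20 at 38423622 to 38515343, 10 far M2 peaks stood in a long gene-poor stretch. They had a median of 21.5 fragments and a highest fold enrichment of 17.2. On chromosome 13 at 44844146 to 44906576, 10 far M2 peaks beside SERP2 and TSC22D1 were packed into 62.4 kb, a shorter span than in the other 14, although the next cluster in order, also of 10, spanned 54.6 kb. Their strongest member was 17.1-fold enriched, and THP-1 peaks were 128 and 103 kb away.

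**Figure D5:**
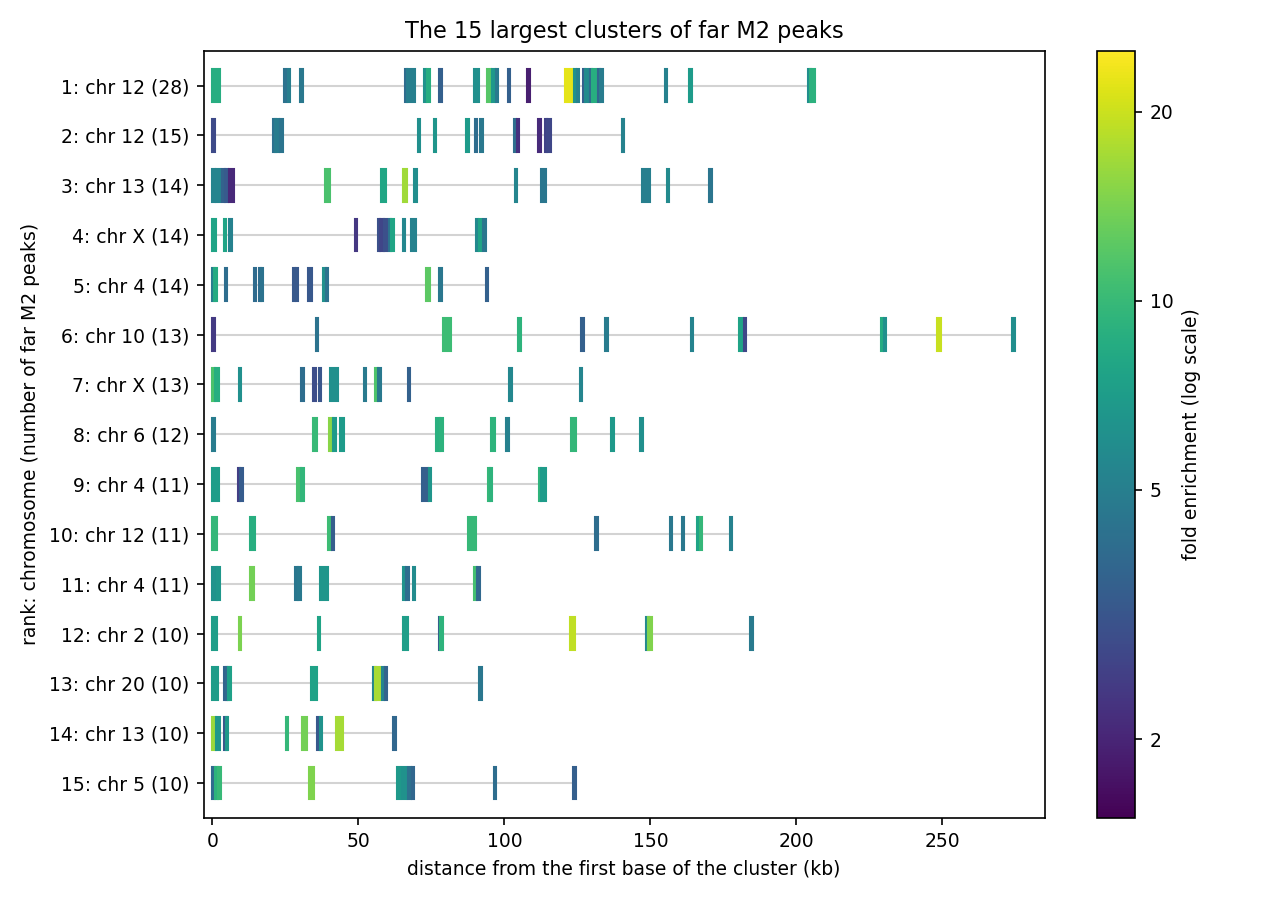
The 15 largest clusters of far M2 peaks, 1 per row with its rank, chromosome and number of peaks, drawn to scale in kb from the first base of each cluster. Boxes are peaks, widened to 0.8 kb where narrower, coloured by fold enrichment on a log scale. The largest, on chromosome 12, holds 28 peaks over 206 kb, and the longest, on chromosome 10, holds 13 over 274 kb.

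Further clusters among the 30 largest follow, named after their values were seen; those that are the largest of their chromosome come later. On chromosome 2, clusters of 10 far M2 peaks lay inside SH3RF3 (109829803 to 109884430, highest fold 19.3) and from the integrin gene ITGB6 towards the RNA-binding protein gene RBMS1 (161012821 to 161127000, highest 10.4). A cluster of 8 lay on the 3′ side of COL6A3, a collagen VI chain (238153266 to 238200751, highest 11.3). Chromosome 13 had 10 far M2 peaks from GJB6 towards CRYL1 (20885465 to 21004730) and 9 between COG6 and FOXO1 (40683180 to 40739451), the latter with its nearest THP-1 peak on the left 1069 kb away. On chromosome 6, 9 far M2 peaks lay over DSE, an enzyme of dermatan sulfate synthesis (116706985 to 116786471), and 9 on the 5′ side of GCLC, the rate-limiting enzyme of glutathione synthesis (53431018 to 53524355, highest 19.7). The DNA repair gene RAD51B on chromosome 14 held 9 inside it (68676782 to 68742808), with a median of 8.30. On chromosome 12, 8 lay over E2F7, a repressor of the cell cycle (77425772 to 77517201), with a median of 53 fragments, and on chromosome 5, 8 lay inside ADAMTS12, a matrix protease (33788066 to 33850930, highest 20.6).

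The clusters above include the largest on chromosomes 2, 4, 5, 6, 10, 12, 13, 20 and X. On chromosome 1, which had 350 far M2 peaks and 13 clusters, 3 clusters tied with 7 peaks. The one covering the most sequence lay at SOX13 and ETNK2 (204010079 to 204121663), a transcription factor and a lipid kinase gene. Chromosome 3, with 291 far M2 peaks, had its largest cluster inside ATP2B2, a calcium pump (10467928 to 10516624): 9 peaks, with a highest fold enrichment of 18.9. On chromosome 7, with 313, the largest also had 9 peaks and followed the 3′ end of ITGB8, an integrin chain that activates TGF-beta (20477861 to 20548330). Here 3 of 9 were at least 10-fold enriched, and the nearest THP-1 peak on the right was 772 kb away.

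Chromosome 8 had 231 far M2 peaks and 2 clusters of 6, of which the one covering more sequence lay at the 3′ part of GFRA2, a receptor for neurturin (21529991 to 21556166). It spanned 26.2 kb and held a peak of 22.3-fold with 123 fragments, and the nearest THP-1 peak on the left was 755 kb away. Chromosome 9, with 263, had 8 peaks beside CNTNAP3 (38903938 to 39015422), near the centromere. Chromosome 11, with 213, also had 2 equal clusters, and the one covering slightly more held 8 inside TENM4, a large adhesion protein of neurons and mesenchyme (78774001 to 78808568), within 34.6 kb. Chromosome 14, with 182, had as many as in RAD51B, 9, on the 5′ side of SIPA1L1 (71734134 to 71867143), with a highest fold enrichment of 19.97 and 3 of 9 at 10 or more.

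On chromosome 15, with 144 far M2 peaks, 8 lay in the gene-poor sequence between DPH6 and CDIN1 (35949386 to 36039223), with a lowest fold enrichment of 6.23. Chromosome 16, with 106, had 7 inside SNX29 (12509630 to 12575313), with a median of 7.50. Chromosome 17 had 91 and a single cluster, 7 peaks over HS3ST3A1, an enzyme of heparan sulfate (13464903 to 13554550). Chromosome 18, with 113, had 9 in the stretch between PIEZO2 and GNAL (11293746 to 11369653).

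Chromosome 19 had 99 far M2 peaks and 1 cluster, 6 peaks among the zinc finger genes ZNF320 and ZNF816 (53360225 to 53494912). All 6 had a -log10 q of at least 10, and their median of 69.5 fragments was high against a median fold enrichment of 4.66. Chromosome 21, with 45, had 1 cluster, 8 peaks over KCNJ15, a potassium channel gene (39592539 to 39682636). None held more than 26 fragments. Chromosome 22, with 51, had 2 clusters of 5, of which the one covering more sequence lay over SLC2A11 and MIF, the macrophage migration inhibitory factor (24199324 to 24256135), with fold enrichments from 3.77 to 4.796.

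Of the 10 far M2 peaks of highest fold enrichment, 1 was the peak before HMGA2. The first, on chromosome 7 at 143203476 to 143205681, was 27.3-fold enriched with 96 fragments, beside the bitter taste receptor genes TAS2R60 and TAS2R41. The second, on chromosome 2 at 189539583 to 189542010, was 26.99-fold enriched and lies between GULP1 and COL3A1, a fibrillar collagen gene. A peak on chromosome 9 at 75086770 to 75089523 (26.1-fold, 123 fragments) lies before TMC1, a gene of hair-cell mechanotransduction. On chromosome 20, a peak at 6698578 to 6700950 (25.8-fold) lies before BMP2, a bone morphogenetic protein, and another at 37985762 to 37988131 (24.6-fold) in a gene-poor stretch.

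The next were on chromosome 1 at 195383946 to 195385782, a single peak in a gene desert (23.8-fold), and on chromosome 6 at 152636272 to 152638043, inside the nuclear envelope gene SYNE1 (23.6-fold). On chromosome 2 at 235216390 to 235218826 a 22.8-fold peak belonged to a group of 5 far M2 peaks. On chromosome 12 at 88634968 to 88637677 a 22.6-fold peak lies between TMTC3 and KITLG, the ligand of the receptor KIT. All 10 were 1772 to 2754 bp wide, below the limit of 3000 bp, and held 81 to 213 fragments. In the list, 8 of the 10 belonged to a group of at least 3 far M2 peaks. Of all far M2 peaks, 25.7% lay in groups of 3 to 4 and 22.5% in groups of 5 or more. Whether strength goes with grouping was not tested.

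The 5 far M2 peaks most distant from THP-1 peaks were all single. Their fold enrichments ran from 4.07 to 6.37, on either side of the median of the set, 5.21. All far M2 peaks at gaps of 1000000 bp or more had a median of 5.28. The farthest, on chromosome 2 at 166809786 to 166810258, was 2211874 bp from a THP-1 peak and 4.23-fold enriched. By the same general knowledge of the gene map, with no overlap computed, it lies near the start of TTC21B, a ciliary transport gene. The fourth, also on chromosome 2 at 167267203 to 167267701 (6.20-fold, 22 fragments), lies in SCN7A, in the same block of sodium channel genes. On chromosome 18 at 36520284 to 36521986 a peak in a gene desert was the strongest of the 5, 6.37-fold enriched with 82 fragments. A peak on chromosome 14 at 38064479 to 38064981 lies near the start of FOXA1, a pioneer factor of endoderm, and had 13 fragments and a -log10 q of 3.36. On the X chromosome at 7001748 to 7002090 a 5.10-fold peak with 17 fragments lies in PUDP.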

How the data were processed

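H3K27ac chromatin immunoprecipitation was sequenced in 1 library each of THP-1 cells and M2 macrophages. Per the submitters' processing notes, reads were handled with Bowtie2 and MACS2 2.1.0 on hg19. The 2 peak lists were read in narrowPeak order. Each peak's fold enrichment (a ratio), its -log10 q and its -log10 p are the authors' deposited values, and the score column deposited by the authors was not used. The lowest -log10 q in the M2 list was 1.31. Starts were raised by 1 bp so that positions are counted from 1.

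Gaps were counted between peak edges, far M2 peaks were joined up to 50000 bp apart, and both steps were tested on simulated peaks (100% right). Fragments and background at a summit were solved from fold enrichment and p-value by the usual MACS2 relations. A pileup scale of 0.842 gave whole fragments, within 0.02, for 99.99% of M2 peaks (9.58% for a typical other scale), and 98.3% had a single solution. They are inferred, not counted. On simulated peaks 100% of single solutions were right. Shares carry Clopper-Pearson 95% intervals. These and the binomial intervals of medians treat peaks as independent. Python 3.11.15, numpy 2.4.6, scipy 1.17.1 and pandas 2.3.3 were used.

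Named are the 15 clusters with most members (ties ordered by covered length, then position), the first per chromosome, the 10 far M2 peaks of highest fold enrichment and the 5 most distant, plus the clusters of rank 16 to 30, added later. Members and lists were chosen with earlier results of these data known. Alternatives changed the distance, width, thresholds, list length and joining. Some genes near these regions are not reported here. No sequence of a peak is shown, as no hg19 genome was used here.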

Additional observations from a re-analysis of the deposited data

How the results depend on the processing

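The size of the set follows its definition. At a distance of at least 50000 bp there were 10018 far M2 peaks (18.6% of M2 peaks under 3000 bp), and at 200000 bp 1978 (3.67%). With no limit on width the share was 9.30%. Keeping M2 peaks with a -log10 q of at least 10 left 2443 (7.72%), and an M2 list cut to the length of the THP-1 list left 2146 (7.40%). Keeping only THP-1 peaks with a -log10 q of at least 10 raised the number to 14824 (27.5%), so absence from the THP-1 list depends on its threshold, and there the largest cluster was another one, on chromosome 1 with 34 peaks. In the other 7 settings tried, the cluster before HMGA2 came first. Between 2 and 14 of the 15 largest clusters were again among the 15 largest in these 8 settings. Clusters of at least 5 numbered 37 at a -log10 q of at least 10, 105 when joined up to 25000 bp and 344 by THP-1-free stretch. Joining at 25000 and 100000 bp put 12.9% and 34.3% of far M2 peaks in clusters. The median fold enrichment was 7.10 at a -log10 q of at least 10, and the median width was 579 and 548 bp at 50000 and 200000 bp. Of 23 chromosomes the X chromosome had the highest far share, but it was number 20 in far M2 peaks per Mb of far sequence, where chromosome 20 led. It was number 23 with long gaps left out, a setting chosen after seeing the data, where chromosome 19 led. At 50000 bp chromosome 4 had the highest far share (28.9% against 27.9% on the X chromosome). No paired analysis was possible because each cell type has 1 H3K27ac library. Peaks under 20 fragments limit what can be said of single members.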

Other observations

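The width limit left out 64 M2 peaks of 3000 bp or more that lay at least 100000 bp from any THP-1 peak, 2.59% of M2 peaks of that width. They had a median width of 3556.5 bp and a median fold enrichment of 15.3 (4.09 to 31.9). Of far M2 peaks, 26.5% had no other far M2 peak within 50000 bp. Of these wide peaks, 53 of the 64 (82.8%) lay within 50000 bp of a far M2 peak. Of the 5 widest, 3 stood in the cluster before HMGA2 on chromosome 12, at 66041234 to 66050733 (9500 bp, 18.3-fold), 66087263 to 66093127 (5865 bp) and 66031848 to 66037217 (5370 bp). The second widest lay on chromosome 10 at 92758020 to 92766224 (8205 bp, 13.6-fold) and the third on chromosome 18 at 43381122 to 43387674 (6553 bp, 24.5-fold).

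Grouped by the THP-1-free stretch that holds them rather than by spacing, the far M2 peaks gave a partly different order. The stretch before HMGA2 again came first with 28 peaks over 0.660 Mb. It was followed by the CYBB stretch on the X chromosome (37209895 to 38177636, 21 peaks). The MAPK10 stretch on chromosome 4 (86954967 to 87828505) and the stretch on the X chromosome with the miR-221 and miR-222 cluster (41583075 to 46038971) had 20 each. The CXCL stretch on chromosome 4 (74607609 to 75071825) and the stretch on chromosome 11 with the TENM4 cluster (78272631 to 78996021) had 19 each. A stretch of 2.03 Mb on chromosome 20 (6473495 to 8504859), which includes BMP2, also held 19. In the other direction, 640 of 30822 THP-1 peaks under 3000 bp lay at least 100000 bp from any M2 peak, 2.08% (1.92 to 2.24), in lists of unequal length.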
